A study of Mus musculus with 12 samples.

Results

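The noncoding transcripts ncRNA_aligned_4494, ncRNA_aligned_7971, ncRNA_aligned_2597 and ncRNA_aligned_2216 are described here across 6 groups of mouse kidneys. They were chosen by their measured levels in these libraries: ureteral obstruction went with a high level in wild-type kidneys and with a lower one in kidneys without Smad3. They are 4 of the 42452 putative noncoding transcripts in the deposited tables, taken by name. All 4 were listed in each of the 12 libraries, and all 4 passed the filter on low counts, which kept 24816 transcripts. Because that pattern was the reason for the choice, their levels and differences below are a description and carry no test.

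Libraries were made from kidneys of C57BL/6J mice, either wild type (WT) or Smad3 knockout (KO). Within each genotype 2 kidneys were normal and untreated, 2 had been obstructed for 5 days by tying the left ureter (unilateral ureteral obstruction, UUO), and 2 came from day 10 of a glomerulonephritis raised with sheep immunoglobulin against the mouse glomerular basement membrane (anti-GBM, 60 μg/g body weight after immunisation with sheep IgG in complete adjuvant). The same 2 normal libraries of a genotype serve as control for both diseases. Sham-operated mice appear in the protocol text, but no library carries that label. Both sexes were used for UUO, the sex and age of each animal are not given in the labels, and the labels do not say how Smad3 was removed. The kidney is a whole organ here, so a lower share of a cell type and less RNA per cell cannot be told apart in any value below.

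Smad3 is the transcription factor that carries signals of transforming growth factor β from its receptors to the nucleus, where it acts on genes of matrix production and inflammation. In the kidney this pathway is best known for its part in scarring after obstruction, when the tubules are lost, myeloid cells enter and fibroblasts lay down collagen. Long noncoding RNAs are transcripts without a protein product. Some act on chromatin or on RNA processing, and most have no assigned role.

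Each of the 4 transcripts has a mouse cDNA described as noncoding as its best database match. The shortest, ncRNA_aligned_4494, is 255 bases long and matches cDNA AK156533. Transcript ncRNA_aligned_7971 has 386 bases and matches AK089828, ncRNA_aligned_2597 has 4654 bases and matches AK134218, and ncRNA_aligned_2216 has 4049 bases and matches AK163100. The tables give neither coordinates nor sequences for them, and none has a gene name or a known function in the sources used here. Rows of the tables are called transcripts below, without any claim that a row is a separate gene.

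Levels are given as CPM (read counts relative to library size), scaled between libraries by the trimmed mean of M-values (TMM), with the read numbers behind them. Reads listed per library ran from 4595261 to 7342937. In 3 libraries, WT UUO 1, KO UUO 1 and KO anti-GBM 1, reads were bunched on their transcripts: the median covered length was 0.285 to 0.447 of that of randomly placed reads, against 0.636 to 0.911 in the other 9. The main differences are therefore also given for these 9 libraries of higher breadth, which leave a single library in the WT UUO, KO UUO and KO anti-GBM groups. Of the kidney markers chosen, the mir-200b precursor and the renin element had a row, with summed levels that differed between groups: 50.9 to 72.7 CPM in WT anti-GBM, 577 to 1254 CPM in KO anti-GBM and 132 to 537 CPM over the other 4 groups. In anti-GBM the 2 went opposite ways. The renin element had 5.13 and 20.6 CPM in WT and 562 and 1238 CPM in KO. The mir-200b precursor had 45.8 and 52.1 CPM in WT and 14.7 and 16.5 CPM in KO. The part of these marker differences in the anti-GBM values below was not tested. The 4 liver and muscle microRNA precursors on the list had no matching row and were not analysed.

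In WT kidneys all 4 transcripts stood far higher after UUO. The normal libraries held ncRNA_aligned_4494 at 3.42 and 0.867 CPM (16 and 4 reads), the obstructed ones at 27.7 and 88.6 CPM (186 and 1055 reads). For ncRNA_aligned_7971 the normal values were 3.42 and 3.04 CPM (16 and 14 reads) and the obstructed ones 28.8 and 74.7 CPM (193 and 890 reads). In both, the second UUO library lay well above the first, and both UUO libraries lay above both normal ones, as held for all 4 transcripts and for 31% of all those tested.

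The longer ncRNA_aligned_2597 went from 8.77 and 5.20 CPM in WT normal (41 and 24 reads) to 125 and 255 CPM in WT UUO (842 and 3036 reads). Transcript ncRNA_aligned_2216 went from 0.641 and 4.12 CPM (3 and 19 reads) to 56.6 and 54.2 CPM (380 and 646 reads). Its UUO libraries were close together and its normal libraries were not. Here the spread lies in the low group, which rests on few reads.

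As log2 differences, UUO minus normal in WT was 4.75 ± 0.81 (SE) for ncRNA_aligned_4494, 4.0 ± 0.77 for ncRNA_aligned_7971, 4.76 ± 0.74 for ncRNA_aligned_2597 and 4.53 ± 0.80 for ncRNA_aligned_2216. These are ratios of 26.9-fold, 16-fold, 27.2-fold and 23.1-fold. Without WT UUO 2 the log2 differences of the first 3 were 3.52, 3.0 and 4.01, and without WT normal 1 that of ncRNA_aligned_4494 was 6.00. All 4 were among the 169 transcripts called higher in this comparison (edgeR quasi-likelihood test, adjusted p under 0.05), against a background of 0.681% of the 24816 tested. Nothing is read from that count, because this difference is part of what chose them. DESeq2 on the 12 libraries and edgeR on the 9 also called all 4, against 2.69% and 4.19%. The call of ncRNA_aligned_7971 was lost without WT normal 1 or WT normal 2, and that of ncRNA_aligned_2216 without WT normal 1 (3.67). Without WT normal 2 the difference of ncRNA_aligned_2216 grew to 6.30.

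In each of the 4 transcripts both WT UUO libraries lay above the other 10 libraries, as they did for 7.26% of all transcripts tested. The order of the remaining groups differed from one transcript to the next, as the plot of levels by library shows.

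**Figure D1:**
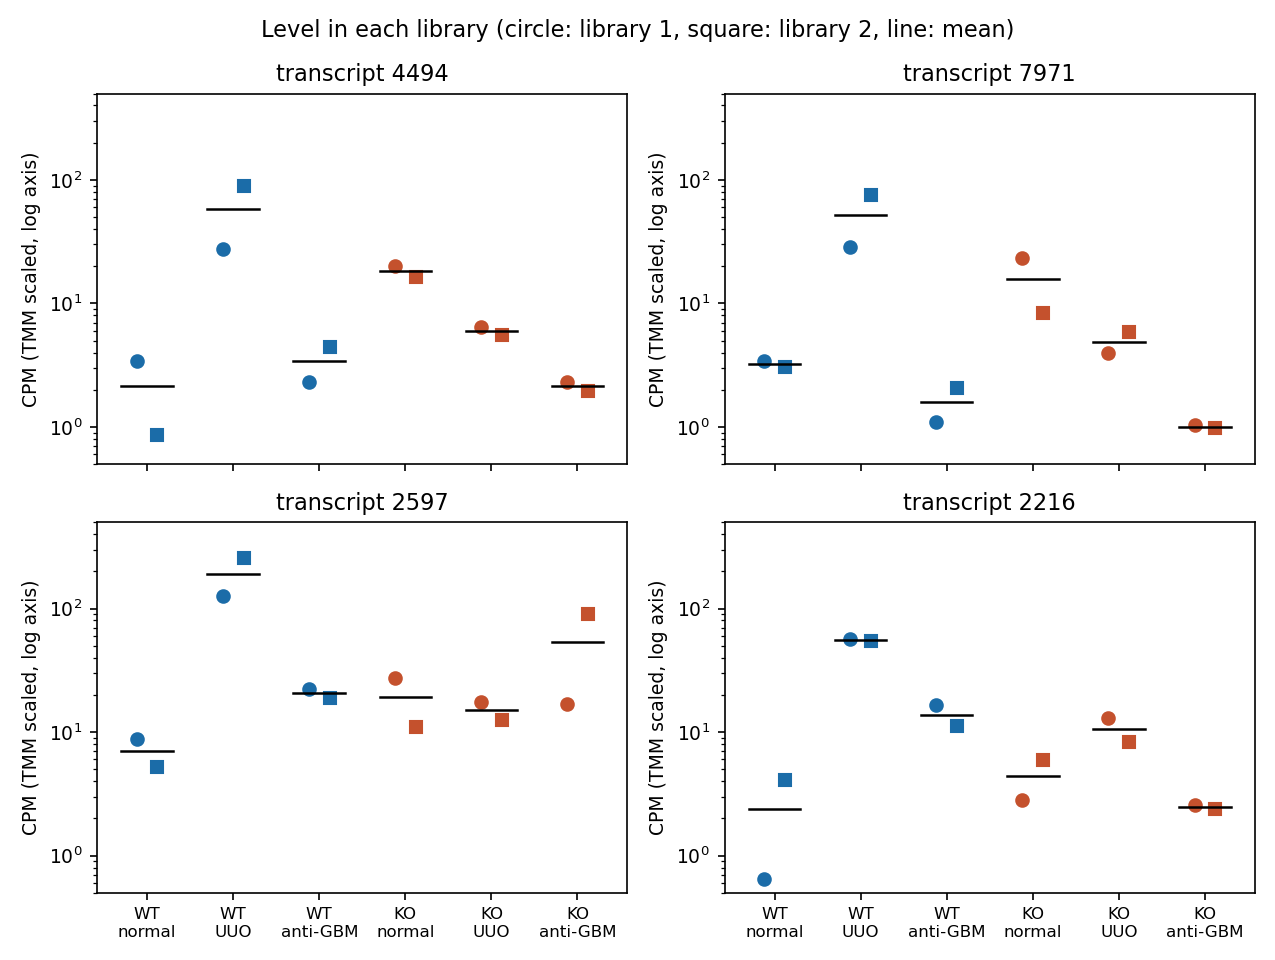
CPM (log axis) of the 4 transcripts in each of the 12 libraries, WT in blue and KO in red, with a line at the mean of each pair. The WT UUO pair is highest in every panel, and KO normal is the next highest pair for ncRNA_aligned_4494 and ncRNA_aligned_7971 only.

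The KO kidneys showed other patterns, which differed between the transcripts. Normal KO libraries held ncRNA_aligned_4494 at 19.9 and 16.3 CPM (98 and 72 reads), above both WT normal libraries, and KO UUO held it at 6.49 and 5.52 CPM (61 and 33 reads). Likewise ncRNA_aligned_7971 had 23.1 and 8.4 CPM in KO normal (114 and 37 reads), then 3.94 and 5.86 CPM in KO UUO (37 and 35 reads). For this pair the obstructed KO libraries were the lower ones, so the word blunted describes only the comparison with WT.

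For ncRNA_aligned_2597 the KO normal libraries, at 27.4 and 10.9 CPM, overlapped the KO UUO ones, at 17.5 and 12.5 CPM (164 and 75 reads). Only ncRNA_aligned_2216 was higher in both obstructed KO libraries than in the normal ones, at 12.9 and 8.37 CPM (121 and 50 reads) against 2.84 and 5.90 CPM (14 and 26 reads). Its difference in KO was smaller than in WT, so it alone of the 4 has the literal form of a blunted induction. KO UUO lay wholly above KO normal in 16.7% of all transcripts, and KO normal wholly above KO UUO in 19.3%. WT UUO lay wholly above KO UUO for all 4 and for 19.4% of all transcripts.

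The log2 difference of UUO minus normal in KO was -1.59 ± 0.71 for ncRNA_aligned_4494, -1.69 ± 0.70 for ncRNA_aligned_7971, -0.35 ± 0.64 for ncRNA_aligned_2597 and 1.28 ± 0.71 for ncRNA_aligned_2216 (edgeR, ± SE). None of them was called higher, as were 0.0121% of all transcripts. DESeq2 on the same 12 libraries called none of the 4 higher either, against a background of 0.258%, and edgeR on the 9 libraries none, against 0.584%. For ncRNA_aligned_2597 the sign changed without KO normal 1 (0.40) and in other settings (0.32 with library size alone, at most 0.37). It thus has no settled direction in KO.

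**Figure D2:**
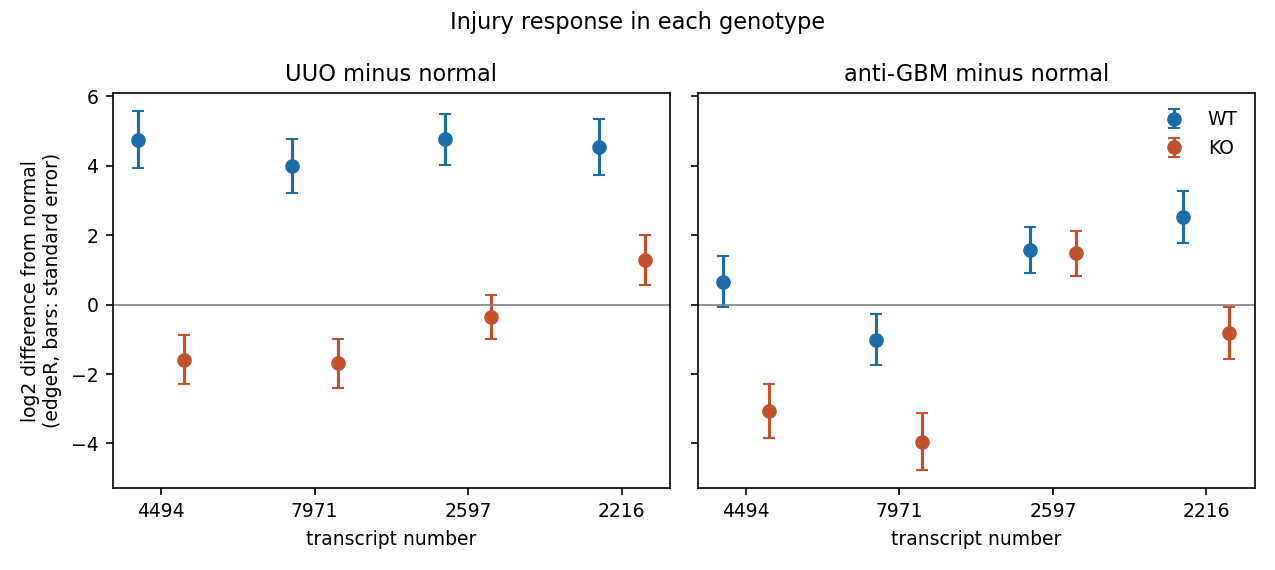
Log2 difference of UUO (left) and anti-GBM (right) from normal in WT (blue) and KO (red) for the 4 transcripts, with standard errors from edgeR. In UUO the WT values lie between 4.0 and 4.76 and the KO values between -1.69 and 1.28. In anti-GBM no such gap is seen for ncRNA_aligned_2597.

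The UUO response in KO minus that in WT was -6.34 ± 1.07 on the log2 scale for ncRNA_aligned_4494. It was -5.69 ± 1.04 for ncRNA_aligned_7971, -5.11 ± 0.95 for ncRNA_aligned_2597 and -3.25 ± 1.03 for ncRNA_aligned_2216. The first 3 were among 4 transcripts called more negative in KO, 0.0161% of those tested, and ncRNA_aligned_2216 was not. This is the contrast behind the choice, so its calls support nothing further. The other transcript called was ncRNA_aligned_943 (a predicted conserved structure), with a difference of -3.82 ± 0.72. Unlike the first 3, it had a higher mean in KO UUO (122.4 CPM) than in KO normal kidneys (30.7 CPM). DESeq2 also called the first 3, against a background of 0.193%.

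In the 9 libraries of higher breadth the differences were -7.00, -5.89, -5.73 and -3.51, in the order given above. All 4 were called there, against a background of 0.512%. The call of ncRNA_aligned_7971 was lost without KO normal 1 (log2 -4.75) and without WT normal 2 (-5.57), and ncRNA_aligned_2216 ranged from -2.44 without WT normal 1 to -5.08 without WT normal 2. Without WT UUO 2, the library with the highest levels of the first 3, their differences were -5.17, -4.73 and -4.42.

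This difference between responses can be split into the genotype gap in obstructed kidneys and the gap in normal kidneys. In UUO, KO minus WT was -3.27 ± 0.74 for ncRNA_aligned_4494, -3.40 ± 0.74 for ncRNA_aligned_7971, -3.66 ± 0.70 for ncRNA_aligned_2597 and -2.38 ± 0.71 for ncRNA_aligned_2216. In normal kidneys the gap ran the other way, at 3.07 ± 0.77, 2.28 ± 0.73, 1.45 ± 0.66 and 0.87 ± 0.75 in the same order. For ncRNA_aligned_4494 the 2 gaps were of like size with all 12 libraries, but the UUO gap was -2.11 without WT UUO 2 and the normal gap 4.35 without WT normal 1. For ncRNA_aligned_2216 the UUO gap was the larger one with all 12. That order rests on the WT normal pair of 3 and 19 reads, since its normal gap was 0.08 without WT normal 1 and 2.71 without WT normal 2, while its UUO gap stayed between -2.59 and -2.16 in the 12 fits without 1 library.

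Both KO normal libraries lay above both WT normal libraries for 3 of the 4, the exception being ncRNA_aligned_2216, and for 19.7% of all transcripts. The normal libraries enter the contrast behind the choice, so the counts given here are a description and support nothing further. None of the 4 was called higher in KO normal by edgeR, which called 0 of 24816 (0%, with 550 at an unadjusted p under 0.05 in either direction). DESeq2 called 1 of the 4 against a background of 0.0443%. In the 9 libraries, which hold all 4 normal ones, edgeR called 3 against 0.368%.

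**Figure D3:**
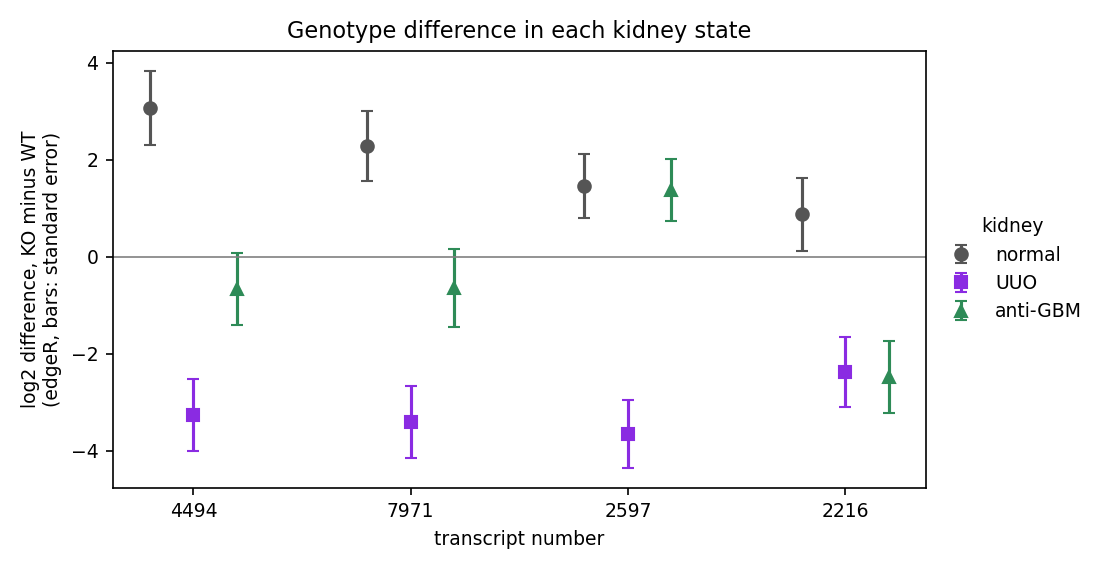
Log2 difference of KO minus WT within normal, UUO and anti-GBM kidneys for the 4 transcripts, with standard errors from edgeR. The normal values lie above 0 and the UUO values below 0 for all 4, whereas the anti-GBM values lie between -2.48 and 1.37.

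Anti-GBM nephritis gave a different picture for each transcript. In WT, ncRNA_aligned_2216 stood at 16.5 and 11.2 CPM (the second with 103 reads), above both normal libraries, with a log2 difference of 2.53 ± 0.75. Transcript ncRNA_aligned_2597 stood at 22.5 and 19 CPM (184 and 174 reads; 1.56 ± 0.66). The levels of ncRNA_aligned_4494 were 2.32 and 4.47 CPM (19 and 41 reads), overlapping the normal ones (0.66 ± 0.74). Those of ncRNA_aligned_7971 were 1.10 and 2.07 CPM (9 and 19 reads), below both normal ones (-1.01 ± 0.74). WT anti-GBM lay wholly above WT normal for ncRNA_aligned_2216 and ncRNA_aligned_2597, and for 32.7% of all transcripts. Without WT normal 2 the value of ncRNA_aligned_4494 was -0.03.

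In KO anti-GBM kidneys ncRNA_aligned_4494 had 2.32 and 1.97 CPM (9 and 10 reads) and ncRNA_aligned_7971 had 1.03 and 0.985 CPM (4 and 5 reads). Both lay far below their KO normal libraries, with log2 differences of -3.07 ± 0.77 and -3.95 ± 0.81. Transcript ncRNA_aligned_2216 was at 2.58 and 2.36 CPM (10 and 12 reads), also below KO normal (-0.82 ± 0.75). KO normal lay wholly above KO anti-GBM for these 3 and for 28.6% of all transcripts.

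Transcript ncRNA_aligned_2597 split the KO anti-GBM pair, with 17.0 CPM in the first library (66 reads) and 89.8 CPM in the second (456 reads). The first is 1 of the 3 libraries of low breadth. Its response difference in anti-GBM was -0.09 ± 0.89 with 12 libraries. It was 0.68 without KO anti-GBM 1 and -1.78 without KO anti-GBM 2, and it was also above 0 without KO normal 1 (0.73) or WT normal 2 (0.25), so its direction rests on which library is kept.

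The other 3 had a more negative anti-GBM response in KO, with differences of -3.73 ± 1.06 (ncRNA_aligned_4494), -2.93 ± 1.08 (ncRNA_aligned_7971) and -3.35 ± 1.05 (ncRNA_aligned_2216). Over all transcripts the median was -0.71, and 62.7% were negative. The normal libraries also enter the contrast behind the choice, so the direction was partly given. For the first pair the gap between genotypes in nephritic kidneys was small, at -0.66 ± 0.74 and -0.65 ± 0.80, and most of the difference was the higher KO normal level. For ncRNA_aligned_2216 the nephritic gap was -2.48 ± 0.75, near that in UUO. WT anti-GBM lay wholly above KO anti-GBM for ncRNA_aligned_7971 and ncRNA_aligned_2216, and for 38.2% of all transcripts. With 12 libraries edgeR called 0 of 24816 transcripts more negative in KO (0%, with 2481 at an unadjusted p under 0.05 in either direction), and DESeq2 called 91 (0.367%), none of the 4 among them. In the 9 libraries, with a single library in KO anti-GBM, only differences are given. They were -3.83 for ncRNA_aligned_4494, -2.95 for ncRNA_aligned_7971, -3.40 for ncRNA_aligned_2216 and 0.68 for ncRNA_aligned_2597.

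Within WT, UUO exceeded anti-GBM for all 4, with log2 differences of 4.09 ± 0.77 for ncRNA_aligned_4494, 5.01 ± 0.81 for ncRNA_aligned_7971, 3.20 ± 0.68 for ncRNA_aligned_2597 and 2.00 ± 0.70 for ncRNA_aligned_2216. Both WT UUO libraries lay above both WT anti-GBM libraries in each, and in 20% of all transcripts. EdgeR called the first pair, against a background of 0.0604%, DESeq2 the first 3, against 0.488%, and edgeR on the 9 libraries all 4, against 0.761%. The edgeR call of ncRNA_aligned_4494 was lost without WT anti-GBM 1 (3.58) or WT UUO 2 (2.84). The WT UUO libraries are among the values that chose these transcripts, so the direction was partly given.

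Compared per length, as the authors' RPKM (reads relative to transcript length and to the reads listed in the library, not TMM scaled), the order in WT UUO was ncRNA_aligned_4494 with 361 ± 286 RPKM (SD, n = 2), ncRNA_aligned_7971 with 211 ± 145, ncRNA_aligned_2597 with 64.1 ± 35.0 and ncRNA_aligned_2216 with 21.1 ± 0.922. The first and second overlapped between libraries, with values of 159 and 563 against 109 and 314. Within each WT UUO library the first was the higher, by a ratio of 1.46 and 1.79. In WT normal 2 alone the second was the higher (ratio 0.4325). In WT normal the values were 6.33 ± 5.42, 6.25 ± 0.655, 1.12 ± 0.427 and 0.435 ± 0.445 RPKM.

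Coverage along the transcripts varied between libraries. Of the 4049 bases of ncRNA_aligned_2216, 81.08% and 99.01% were covered in WT UUO, and 25.56% and 53.54% in KO UUO, where 121 reads in the first library covered less than 50 reads in the second. Random placement of those 121 reads would cover 93.21%. For ncRNA_aligned_2597 the covered share was 39% in WT UUO 1 and 80.45% in WT UUO 2. On the short ncRNA_aligned_7971, 193 reads of WT UUO 1 covered 49.48% and 890 reads of WT UUO 2 covered 75.65%, whereas 37 and 35 reads in KO UUO covered 44.04% and 86.27%. Covered shares thus followed the library as well as the read number, and each UUO pair holds 1 library of low breadth. The share of these bunched reads in the differences was not tested beyond the fit with 9 libraries.

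Several rows of the tables carry the same best match as a transcript described here, and they give values that did not enter the choice. No other row matched AK156533 or AK163100. For AK089828, the match of ncRNA_aligned_7971, there were 5 other rows, of which 3 passed the filter. For AK134218, the match of ncRNA_aligned_2597, there were 7, all of which passed. How similar these rows are in sequence is unknown here, so how uniquely mapped reads were divided among them is uncertain.

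The tested AK089828 rows were high where ncRNA_aligned_7971 was high. The most abundant, ncRNA_aligned_4495 (1613 bases), had 617 and 264 CPM in normal WT kidneys, then 942 and 3596 CPM after UUO. In KO it had 1945 and 1120 CPM in normal kidneys and 260 and 590 CPM after UUO. Each WT UUO library thus lay above each WT normal one, and each KO UUO library below each KO normal one. Its UUO response in KO minus that in WT was -4.21 ± 1.04 (edgeR adjusted p = 0.32).

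Transcript ncRNA_aligned_11744 (718 bases) went from 23.1 and 8.89 to 61.1 and 139 CPM in WT and from 73.3 and 43.4 to 17.6 and 19.6 CPM in KO, a difference of -4.30 ± 0.86 (adjusted p = 0.0626). Transcript ncRNA_aligned_6712 (1112 bases) gave -5.94 ± 1.43 (adjusted p = 0.16). In WT UUO against normal, ncRNA_aligned_11744 rose by 2.65 ± 0.62 (adjusted p = 0.0206) and ncRNA_aligned_6712 by 4.02 ± 1.06 (adjusted p = 0.0424), while ncRNA_aligned_4495 was at 2.36 ± 0.74 (adjusted p = 0.149).

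By edgeR on 12 libraries none of the 3 passed in the difference of UUO responses (3 at an unadjusted p under 0.05), with a median of -4.30 beside -0.25 over all transcripts. DESeq2 called all 3, against a background of 0.193%. The 9 libraries leave a single library in WT UUO and in KO UUO, so only differences are given for them. They were -4.63 for ncRNA_aligned_11744, -4.335 for ncRNA_aligned_4495 and -5.64 for ncRNA_aligned_6712. In the 12 fits without 1 library ncRNA_aligned_4495 was called in 12, ncRNA_aligned_11744 in 10 and ncRNA_aligned_6712 in 8. Those fits also called more of all transcripts, 7 to 236 against 4 with all 12 libraries. The calls gained there thus do not make these differences firmer. Whether reads of one row could also have come from another was not tested. In normal kidneys all 3 stood higher in KO, by 1.80 to 2.67, and 52.2% of all transcripts had a difference above 0. None of the 3 passed on 12 libraries (3 at an unadjusted p under 0.05, and 0 by DESeq2). On the 9 libraries the differences were 1.86 for ncRNA_aligned_11744, 2.68 for ncRNA_aligned_6712 and 1.79 for ncRNA_aligned_4495.

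**Figure D4:**
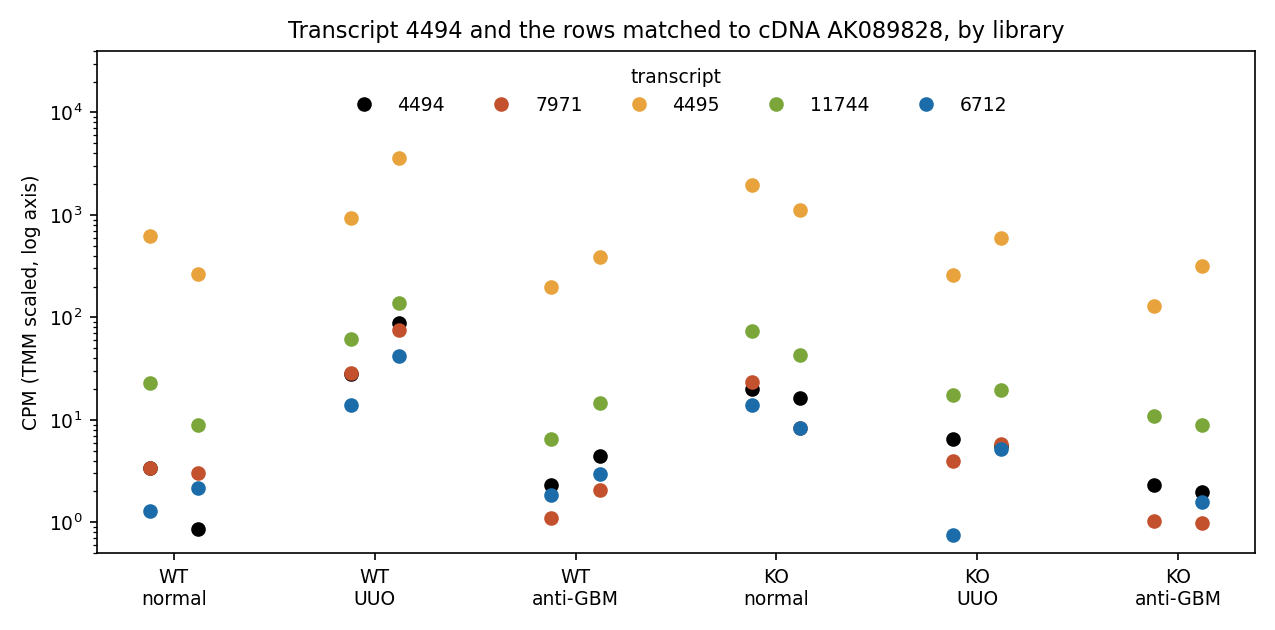
CPM (log axis) in each of the 12 libraries of ncRNA_aligned_4494 and of the 4 rows matching cDNA AK089828 that passed the filter, with the first library of each group to the left. All 5 have their highest mean in WT UUO and the next in KO normal, some points cover others, and ncRNA_aligned_6712 had 0 reads in KO anti-GBM 1, which a log axis cannot show.

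The shortest transcript follows the same course although its own match is another cDNA. Over the 12 libraries ncRNA_aligned_4494 correlated with ncRNA_aligned_7971 at r = 0.921 (log2 CPM), against 0.526 to 0.645 for the other 5 pairs among the 4. The transcripts most like ncRNA_aligned_4494 were ncRNA_aligned_11744 (r = 0.955), ncRNA_aligned_7971 and the predicted ncRNA_predict_12542 (0.892). Those most like ncRNA_aligned_7971 were ncRNA_aligned_11744 (0.959), ncRNA_aligned_4494 and ncRNA_aligned_4495 (0.917). The running number of ncRNA_aligned_4495 is next to that of ncRNA_aligned_4494, and how numbers were given is not recorded. The points share libraries and depth, so the correlations are descriptions.

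The predicted transcript ncRNA_predict_12542, 485 bases long and without a match, averaged 123 ± 78.6 CPM in normal WT kidneys and 683 ± 615 CPM after UUO, against 470 ± 144 and 120 ± 54.5 CPM in KO (SD, n = 2). The gap between responses was -4.43 ± 1.03 (edgeR adjusted p = 0.209). Its group means stood in the order of those of ncRNA_aligned_4495. Since ncRNA_predict_12542 was named for its likeness to ncRNA_aligned_4494 over the same libraries, the direction of its gap was partly given. Its p-value therefore supports nothing further.

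The rows that match AK134218 did not all follow ncRNA_aligned_2597. Their difference of UUO responses was negative in 6 of 7, from -3.84 ± 0.94 for ncRNA_aligned_2598 (adjusted p = 0.16) to 0.01 ± 1.28 for ncRNA_aligned_2602, with a median of -3.34 beside -0.25 over all transcripts, of which 56% were negative. With DESeq2 size factors or library size alone 7 of 7 were negative, but all transcripts moved the same way, with 59.5% and 67.4% negative. None of the 7 passed by edgeR on 12 libraries (3 at an unadjusted p under 0.05). DESeq2 called 2, against a background of 0.193%. In the 9 libraries, with a single library in WT UUO and in KO UUO, the median was -3.20 beside -0.30 over all transcripts.

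In WT UUO against normal, 6 of the 7 had a difference above 0, as did 61.1% of all transcripts. EdgeR called 1 of them on 12 libraries, against a background of 0.681%, and DESeq2 called 3, against 2.69%. In the 9 libraries, with a single library in WT UUO, the median of the 7 was 2.66 beside 0.53 over all transcripts. The one called in the first fit was ncRNA_aligned_2598 (3257 bases), which rose from 10.5 and 10.2 to 48.4 and 184 CPM (3.49 ± 0.70, adjusted p = 0.00724). Its KO values, 24.6 and 15 CPM in normal and 8.41 and 22.8 CPM in obstructed kidneys, overlapped. Transcript ncRNA_aligned_2602 (3045 bases), with the same match, had 47.7 and 42.9 CPM in normal WT kidneys against 12.1 and 65.5 CPM after UUO, so a shared match did not go with a shared course there.

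For several of the 7 the WT UUO pair was wide apart. Transcript ncRNA_aligned_11624 had 3.87 CPM in WT UUO 1 and 102 CPM in WT UUO 2, and its response difference of -3.36 ± 2.13 became 0.54 without WT UUO 2. In anti-GBM the 7 had a median of -0.80 beside -0.71 over all transcripts, and ncRNA_aligned_2597 itself was at -0.09.

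**Figure D5:**
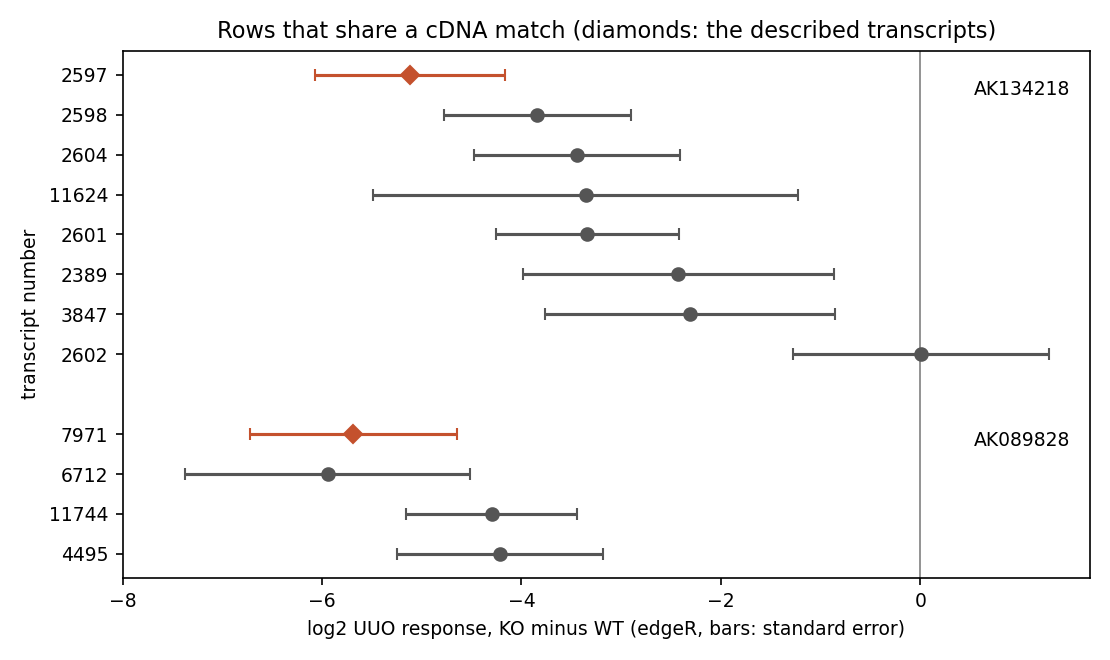
Log2 UUO response in KO minus that in WT, with standard errors from edgeR, for rows that match AK134218 (upper block) and AK089828 (lower block). Diamonds mark ncRNA_aligned_2597 and ncRNA_aligned_7971, which were chosen with this value in view. All rows lie below 0 except ncRNA_aligned_2602 at 0.01.

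The transcripts most like ncRNA_aligned_2597 were the predicted ncRNA_predict_6193 (r = 0.905), ncRNA_aligned_8046 (0.902, cDNA AK132033) and ncRNA_predict_3787 (0.902). Transcript ncRNA_aligned_8046 averaged 2.81 ± 1.55 CPM in normal WT kidneys and 44.3 ± 22.6 CPM after UUO, against 5.38 ± 2.15 and 3.22 ± 1.01 CPM in KO (SD, n = 2), a response gap of -4.70 ± 1.01 (edgeR adjusted p = 0.0917). Those most like ncRNA_aligned_2216 were ncRNA_aligned_5599 (0.890), ncRNA_aligned_4856 (0.888) and ncRNA_aligned_7617 (0.886). Transcript ncRNA_aligned_4856, in a predicted conserved structure, averaged 3.98 ± 0.496 CPM in normal WT kidneys and 80.0 ± 31.4 CPM after UUO, against 7.50 ± 8.02 and 27.1 ± 7.52 CPM in KO. The difference of its responses did not pass (-2.46 ± 0.98, edgeR adjusted p = 0.718). Both ncRNA_aligned_8046 and ncRNA_aligned_4856 were named for their likeness to a chosen transcript over the same libraries. The direction of their gaps was thus partly given, and their p-values support nothing further.

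Of 3 myeloid names on the list 2 had a row, the element in the mRNA of Spi1 (the gene of PU.1, a regulator of myeloid cells) and the mir-155 precursor. Their summed level was 3.90 to 4.28 CPM in WT normal, 45.9 to 59.6 in WT UUO, 1.83 to 16.6 in KO normal and 14.9 to 17.9 in KO UUO. The sum was mostly the Spi1 element, at 44.8 and 50.7 CPM in WT UUO and at 13.4 and 16.6 CPM in KO UUO. The mir-155 precursor was high in WT UUO 2 alone, at 8.90 CPM, and at 1.04 CPM in WT UUO 1 it lay below both KO UUO libraries (1.49 and 1.34 CPM). Of 4 mesenchymal names 2 had a row, the vimentin and Ctgf elements, with 321 to 329 CPM in WT normal, 537 to 869 in WT UUO, 452 to 475 in KO normal and 388 to 698 in KO UUO. Their highest sum was in KO anti-GBM, at 1264 to 1370 CPM, against 373 to 574 CPM in WT anti-GBM. The vimentin element went from 198 and 140.5 CPM in WT normal to 347 and 634 CPM in WT UUO. The Ctgf element went from 131 and 180 CPM to 189 and 235 CPM. In KO normal the 2 ran opposite ways between libraries, with vimentin at 176 and 345 CPM and Ctgf at 300 and 107 CPM. KO UUO had vimentin at 198 and 497 CPM and Ctgf at 190 and 202 CPM. The narrow ranges of the sums in normal kidneys thus hide wider ones. The part of cell composition in the response differences was not tested.

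Of 33 noncoding RNAs and mRNA elements tied to kidney injury or to cell types, 10 had a row, giving 11 tested transcripts. None passed in the difference of UUO responses by edgeR (2 at an unadjusted p under 0.05), and DESeq2 called 1. Their median was -0.73, with 8 of 11 negative, beside -0.25 and 56% over all transcripts. The H19 row had 0 CPM in both normal groups, so its sign carries no information. The Neat1 row ncRNA_aligned_3988 gave -3.49 ± 3.03, but its group means were only 0 to 1.30 CPM. The other Neat1 row, ncRNA_aligned_3989, with group means of 121 to 1047 CPM, gave -0.73 ± 1.02. The Spi1 element, ncRNA_aligned_3717, gave -2.96 ± 1.18 (adjusted p = 0.723), and the mir-135a precursor, ncRNA_aligned_6360, gave 2.72 ± 0.60 (adjusted p = 0.103). The other 23 names were not analysed here.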

How the data were processed

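Kidney RNA depleted of ribosomal RNA and size-selected on a urea gel was sequenced, per the labels' protocols. The submitters' processing notes name Bowtie 0.12.7 and the build mm9. How transcripts were built, how reads were assigned and whether strand was used are not given in the sources used here, so reads of overlapping or antisense transcripts cannot be told apart. Per the file headers each table lists the count of uniquely mapped reads, the transcript length, the covered share as a percent, the deposited RPKM and the mean depth, a deposited signal (coverage depth). RPKM equalled reads per length and per table total within a relative deviation of 5.115e-15. Transcripts without a row in a library entered with 0 reads.

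Counts were tested with edgeR 4.0.16 (R 4.3.3): TMM scaling, filterByExpr by group, 1 mean per group over all 12 libraries, robust quasi-likelihood F tests, and Benjamini-Hochberg adjustment over 24816 transcripts, called at an adjusted p under 0.05. Adjusted p-values are from this test unless DESeq2 1.42.0 or limma 3.58.1 is named. Log2 differences are the fitted ones, and each standard error is the difference divided by the root of its F statistic. Genotype and disease come from the labels, and replicate numbers only name libraries. Nothing says more of the replicates than that they are separate samples, so p-values measure the spread between these. The smallest p of an exact permutation of 2 libraries against 2 is 0.3333, which is why the spread was pooled over all 12. Read numbers cover counting error only. Covered length was set against random placement of reads of 90 bases, using those transcripts above 500 bases in length that had 20 to 200 reads.

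The members, lists and tests were chosen with earlier results of these data known. Besides the 4 members, the text names rows with a member's database match, the 3 transcripts of mean 10 CPM or more most correlated with each (log2 CPM, prior count 2), the listed RNAs with a row, and ncRNA_aligned_943, singled out after its values were seen. Alternatives were other scalings, no filter, DESeq2, limma on log2 of RPKM plus 0.1 or 1, no robust option, the 2 most abundant transcripts left out, only the groups of a contrast, the 9 libraries of higher breadth, and each library left out.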

Additional observations from a re-analysis of the deposited data

Results flagged for a closer look

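The UUO response in KO minus that in WT was past the threshold on adjusted p for ncRNA_aligned_4494 (log2 -6.34), ncRNA_aligned_7971 (-5.69) and ncRNA_aligned_2597 (-5.11). The transcripts were chosen with these values known, so they are a description and no independent test of a difference between the genotypes.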

How the results depend on the processing

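The difference of UUO responses stayed negative for all 4 transcripts in the 12 fits without 1 library and in 10 other settings. Without 1 library it ran from -7.63 to -5.17 for ncRNA_aligned_4494, from -6.21 to -4.73 for ncRNA_aligned_7971, from -5.62 to -4.30 for ncRNA_aligned_2597 and from -5.08 to -2.44 for ncRNA_aligned_2216. In anti-GBM the ranges were -5.03 to -3.06, -3.49 to -2.04, -1.78 to 0.73 and -5.23 to -2.59. The UUO call was lost with limma on RPKM plus 0.1 (-6.83, -5.79 and -5.27 for ncRNA_aligned_4494, ncRNA_aligned_7971 and ncRNA_aligned_2597), without the robust option (-6.34, -5.69 and -5.11) and with only the 4 groups of normal and UUO (-6.37, -5.73 and -5.14). For ncRNA_aligned_2597 it was also lost with library size alone (-5.53) and limma on RPKM plus 1 (-4.56). The cause of these lost calls was not tested. In the 9 libraries of higher breadth a lone library is assumed to vary like the other groups, so only differences are given here. In UUO ncRNA_aligned_2216 was at -3.51. In anti-GBM ncRNA_aligned_4494 was at -3.83, ncRNA_aligned_7971 at -2.95 and ncRNA_aligned_2216 at -3.40.

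The number of transcripts called more negative in KO was unstable. In UUO it was 4, against 7 with DESeq2 size factors, 18 with library size alone, 42 without a filter, 48 by DESeq2, 45 by limma on RPKM plus 1, 142 in the 9 libraries, 0 by limma on RPKM plus 0.1, 0 without the robust option and 0 with only the 4 groups, while 1397 had an unadjusted p under 0.05 in either direction in the edgeR fit of 12 libraries. Without 1 library it ran from 7 to 236, above the count with all 12 in each of the 12 fits. In anti-GBM it was 0, against 7 with DESeq2 size factors, 29 with library size alone, 37 without a filter, 91 by DESeq2, 788 in the 9 libraries, 19 with only the 4 groups, and 6 to 198 without 1 library. No paired analysis was possible because the labels give no replicate numbers that groups share. Library size alone in place of TMM moved the median of all transcripts from 0.49 to 1.55 in WT UUO and from -0.25 to -0.72 in the difference of UUO responses. With 3 to 19 reads in the WT normal libraries for 3 of the transcripts, depth limits the precision of their differences.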
